A study of Homo sapiens with 12 samples.

Results

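The genes described here are 38 genes of the amino acid stress response that is driven by the transcription factor ATF4. They were taken as a named list and matched from gene symbol to Ensembl identifier in the deposited tables. They make up 38 of the 33704 genes with a read in any library. The list was chosen with earlier results of these data known, so counts over it are no independent support. The list holds 14 regulators and effectors, 15 enzymes, 8 transporters and XPOT, which carries tRNA out of the nucleus. Messenger RNA was sequenced from Jurkat, an established line of human T-cell acute lymphoblastic leukaemia, in 6 groups of 2 libraries. TAL1-control and TAL1-KD cells both carried a doxycycline-inducible short hairpin RNA against TAL1, a transcription factor of blood progenitors, and the TAL1-KD cells received doxycycline at 5 µg/ml for 72 h while the controls were untreated. UTX-control and UTX-KD cells carried an inducible hairpin against UTX, the histone demethylase encoded by KDM6A, and were handled in the same way. The hairpin lines grew in serum free of tetracycline with the selection agents blasticidin and G418. J4-2uM cells received 2 µM GSK-J4, an inhibitor of KDM6 demethylases, for 72 h, and J4-control cells received the vehicle DMSO for as long, in ordinary serum with no selection agent. Each knockdown group differed from its control in doxycycline as well as in the induced hairpin, so the effect of the antibiotic and that of the hairpin cannot be told apart. Neither the culture each replicate came from nor the number of clones in a line is stated in the labels; p-values therefore reflect only how far these libraries spread, which may be a technical spread.

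ATF4 sits at the end of the integrated stress response. Kinases that sense missing amino acids, unfolded proteins, haem shortage or viral RNA phosphorylate the translation factor eIF2, which slows translation in general but lets ribosomes reach the ATF4 coding sequence. ATF4 then pairs with other leucine zipper proteins at composite C/EBP-ATF elements and switches on genes for amino acid synthesis, amino acid uptake and tRNA charging, and also genes that end the response or lead to cell death. Since ATF4 is controlled to a large part by translation, its mRNA level need not follow its protein, and only mRNA was measured here.

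Promoter windows were available for 31 of the 38 genes from RefSeq on GRCh38.p14, and the 250 bases before each annotated start were searched on both strands. The letters TGATGNAA, a core form of the C/EBP-ATF response element, were found in 6 of those 31 genes (19.4%) and in 1061 of 27305 genes with a window (3.89%). The palindrome TGACGTCA, the cyclic AMP response element, was found in 1 of the 31 (3.23%) and in 555 of the 27305 (2.03%). A gene counted if any of its windows held the letters, so genes with more annotated starts had more chances of a match. Whether the listed genes have more starts than other genes was not tested. The 4 matches below belong to genes whose changes are given by library further on, and each is printed on the strand of its gene with the matching letters in capitals.
ASNS: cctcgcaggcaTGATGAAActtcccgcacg
CHAC1: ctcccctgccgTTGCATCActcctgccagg
ATF3: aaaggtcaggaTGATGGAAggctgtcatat
PPP1R15A: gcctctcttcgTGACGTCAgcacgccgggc
The ASNS stretch lies at chr7:97872458-97872487 on the minus strand, with its match beginning at position -68 from the start, and annotated ASNS exons of GENCODE 29 overlap it. The CHAC1 stretch lies at chr15:40953251-40953280 on the plus strand, with the match at -209 on the opposite strand, and an annotated CHAC1 exon overlaps it. Those of ATF3 (chr1:212565205-212565234, match at -191) and PPP1R15A (chr19:48872352-48872381, match at -58) are on the plus strand and overlap no annotated exon. PPP1R15A holds the cyclic AMP response element and the other 3 hold the composite element. CEBPG, MTHFD1L and SLC1A5 also had a match to the composite element. A match describes letters in the window and is not shown to be a bound site.

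Libraries held 55524079 to 82534711 counted reads. The biological coefficient of variation, the spread between replicates beyond counting noise, was 8.4% among the TAL1-labelled libraries, 2.3% among the UTX-labelled ones and 2.69% for GSK-J4. Of 8 T-cell markers, 7 exceeded 10 CPM (reads of a gene scaled to the library total, adjusted by the TMM method) in all 12 libraries, the exception being PTCRA. Myeloid, erythroid and epithelial markers were under 1 CPM in every library in 8 of 9 cases (the exception being ITGAM), while the B-cell gene CD79A was above 10 CPM in all and MS4A1 was under 1 CPM in all. TAL1 mRNA was 254 and 257 CPM in TAL1-control and 232 and 254 CPM in TAL1-KD (log2 fold change -0.07, adjusted p = 0.49). KDM6A mRNA was 30.9 and 31.3 CPM in UTX-control and 29.3 and 29.4 CPM in UTX-KD (log2 fold change -0.08, adjusted p = 0.103). Neither target was shown to be lower in its own knockdown. In edgeR's test TAL1 mRNA was lower with UTX-KD (log2 fold change -0.12, adjusted p = 0.00155) and with GSK-J4 (-0.66, adjusted p = 6.02e-10). KDM6A mRNA was higher with GSK-J4 (0.44, adjusted p = 1.24e-07) and was 0.19 with TAL1-KD (adjusted p = 0.0576). The groups are therefore called by their labels, and every direction below is that of the labelled libraries. Exons of 14 of the 38 genes overlap another gene, among them ATF5, DDIT3, DDIT4, ASNS, SLC7A11 and SLC6A9. As the strand setting of the counting and its handling of shared stretches are not given, reads there may be added or lost.

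Differences were tested with edgeR's quasi-likelihood test over all genes, with Benjamini-Hochberg adjusted p under 0.05 as the call. NUPR1, a stress-induced chromatin protein, had 0 to 3 reads per library and was not tested, which leaves 37 genes. In bulk RNA a change in every cell and a change in the share of cells that express a gene cannot be told apart. In the UTX-labelled comparison 33 of the 37 were higher and 2 lower with UTX-KD, where 25.2% and 25.3% of the 16847 genes tested were called higher and lower. Their median log2 fold change was 0.79, beside 0.01 over all genes. With GSK-J4, 20 genes were higher and 11 lower, where 37.9% and 36.9% of 17907 genes tested were called in those directions, and the median was 0.17, beside 0.01. With TAL1-KD, 10 were higher and 17 lower against 26.3% and 27.9% of 16829 genes tested, and the median was -0.15, beside -0.02. The 17 lower calls became 10 without TAL1-control replicate 1 and 11 without TAL1-control replicate 2. The UTX-labelled response ran in 1 direction for most of the list. In the other comparisons genes were called in both directions, with the share higher with TAL1-KD near that over all genes and the share lower with GSK-J4 under it.

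**Figure D1:**
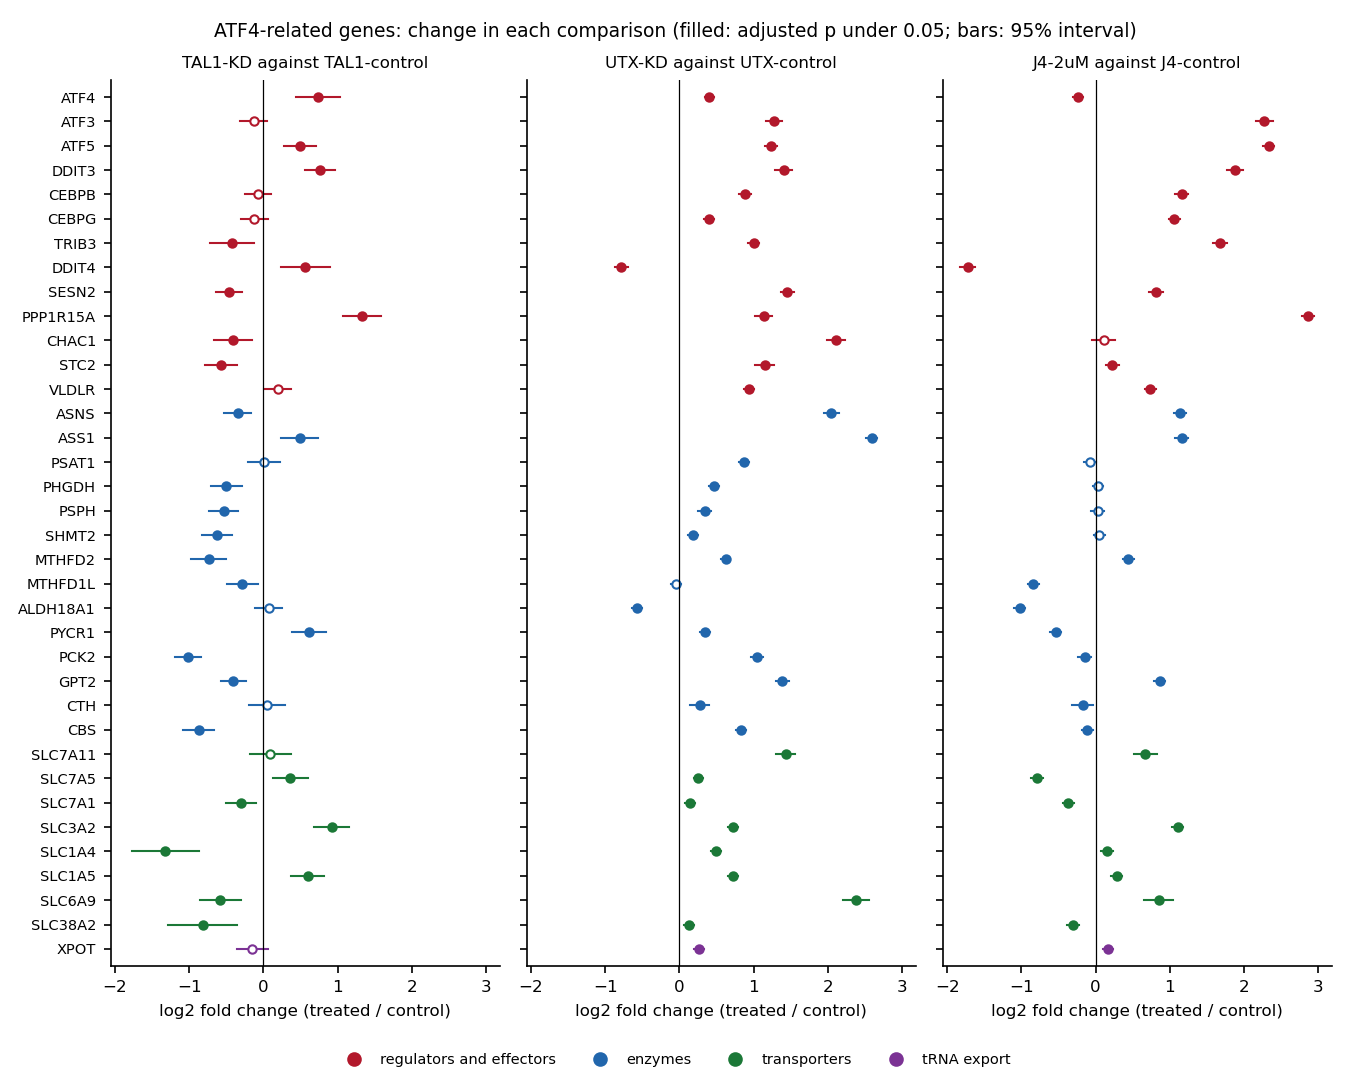
Log2 fold change of each gene (treated over control, x axis) in the 3 comparisons, by role; bars are 95% intervals, filled points passed the adjusted threshold and open points did not. NUPR1 and ALDH1L2, with few reads, are left out. Nearly all points of the UTX-labelled comparison lie right of 0, whereas with GSK-J4 the regulators reach 2.86 and the enzymes spread around 0.

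The regulators and effectors include the leucine zipper factors themselves and the genes that feed back on the response. With UTX-KD 12 of 13 tested rose and 1 fell (median log2 fold change 1.13), with J4-2uM 10 rose and 2 fell (median 1.06), and with TAL1-KD 5 rose and 4 fell (median -0.07). Over all genes the shares called higher and lower were 25.2% and 25.3%, 37.9% and 36.9%, and 26.3% and 27.9% in that order. The falls with TAL1-KD were near that share. ATF4 mRNA itself rose in both hairpin lines and fell with GSK-J4. ATF4 stood at 639 and 681 CPM in the TAL1-control libraries and at 989.9 and 1215 CPM in those labelled TAL1-KD (log2 fold change 0.74, SE 0.13, adjusted p = 0.00259). ATF4 stood at 461 and 467 CPM in the UTX-control libraries and at 616 and 609 CPM in those labelled UTX-KD (log2 fold change 0.40, SE 0.029, adjusted p = 5.97e-09). With GSK-J4 the same mRNA was at 447 and 454 CPM in J4-control against 390.2 and 375 CPM in J4-2uM (log2 fold change -0.24, SE 0.033, adjusted p = 2.28e-05). The treated libraries were above both controls in the hairpin lines and below both with GSK-J4, with no overlap in any of the 3.

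PPP1R15A encodes GADD34, the phosphatase subunit that reverses eIF2 phosphorylation, and rose in all 3 comparisons. PPP1R15A stood at 56.1 and 58.8 CPM in the TAL1-control libraries and at 129.6 and 159 CPM in those labelled TAL1-KD (log2 fold change 1.33, SE 0.11, adjusted p = 0.000258). PPP1R15A stood at 24.6 and 25.9 CPM in the J4-control libraries and at 186 and 182 CPM in those labelled J4-2uM (log2 fold change 2.86, SE 0.040, adjusted p = 6.5e-15), a rise of 7.28-fold and the largest on the list in that comparison. The log2 fold change with UTX-KD was 1.13. In the GSK-J4 libraries both treated values were far above both controls, and the TAL1-KD libraries differed from each other by more than the controls did.

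DDIT3, which encodes the pro-apoptotic factor CHOP, and ATF5, a factor translated in the same manner as ATF4, also rose in all 3. DDIT3 stood at 9.69 and 10.4 CPM in the J4-control libraries and at 36.7 and 37.5 CPM in those labelled J4-2uM (log2 fold change 1.88, SE 0.053, adjusted p = 4.28e-12). ATF5 stood at 78.8 and 81.2 CPM in the J4-control libraries and at 406 and 401 CPM in those labelled J4-2uM (log2 fold change 2.33, SE 0.035, adjusted p = 1.36e-14). For both genes the treated libraries lay close together and far above the controls. Log2 fold changes with TAL1-KD and UTX-KD were 0.77 and 1.40 for DDIT3. For ATF5 they were 0.49 and 1.24, with 303 and 276 CPM in TAL1-control against 400.0 and 414 CPM in TAL1-KD, and the TAL1-KD call was lost without TAL1-control replicate 2 (adjusted p = 0.112). The TAL1-KD value of ATF5 was 0.30 once the dependence of counts on GC content and transcript length had been taken out of each library, called GC and length removal from here on.

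ATF3, a stress-induced repressor and activator, and TRIB3, a pseudokinase that restrains ATF4 and AKT, rose with UTX-KD and with GSK-J4. ATF3 stood at 14.3 and 14.4 CPM in the J4-control libraries and at 72.5 and 66.05 CPM in those labelled J4-2uM (log2 fold change 2.27, SE 0.053, adjusted p = 8.12e-13). TRIB3 stood at 76.5 and 75.9 CPM in the J4-control libraries and at 254 and 232 CPM in those labelled J4-2uM (log2 fold change 1.67, SE 0.043, adjusted p = 1.98e-12). For ATF3 the log2 fold change was 1.27 with UTX-KD and -0.13 with TAL1-KD, the latter not called (adjusted p = 0.199) except without TAL1-KD replicate 2 (-0.15, adjusted p = 0.0325). TRIB3 rose by 0.999 on the log2 scale with UTX-KD and fell by 0.42 with TAL1-KD, where libraries had 381 and 377 CPM in TAL1-control against 318 and 246 CPM in TAL1-KD. That fall was not called without TAL1-control replicate 1 (adjusted p = 0.103) or without replicate 2 (adjusted p = 0.0841), and was -0.25 without TAL1-KD replicate 2.

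CHAC1, an enzyme that breaks down glutathione and a usual readout of ATF4 activity, changed differently in each comparison. CHAC1 stood at 5.997 and 5.49 CPM in the UTX-control libraries and at 25.2 and 24.7 CPM in those labelled UTX-KD (log2 fold change 2.11, SE 0.059, adjusted p = 3.48e-14), a 4.32-fold rise. With GSK-J4 it had 8.32 and 8.80 CPM in J4-control against 9.44 and 9.05 CPM in J4-2uM (log2 fold change 0.11, SE 0.069, adjusted p = 0.172), and the 95% interval of the log2 fold change was -0.04 to 0.26. With TAL1-KD it had 78.7 and 76.6 CPM in TAL1-control against 64.7 and 52.4 CPM in TAL1-KD (log2 fold change -0.41, SE 0.11, adjusted p = 0.0152). The UTX-KD libraries stood well above their controls, the GSK-J4 libraries stood just above theirs by a difference that was not called, and the TAL1-KD libraries stood below theirs. The TAL1-KD fall was not called without TAL1-control replicate 1 (adjusted p = 0.0701). It was -0.26 without TAL1-KD replicate 2 and -0.63 after GC and length removal, called in both.

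SESN2, a leucine-binding inhibitor of mTORC1, and DDIT4 (REDD1), another inhibitor of mTORC1, took opposite directions in each comparison. SESN2 stood at 19.8 and 20.4 CPM in the UTX-control libraries and at 55.3 and 54.5 CPM in those labelled UTX-KD (log2 fold change 1.45, SE 0.041, adjusted p = 3.22e-14). DDIT4 stood at 218 and 199 CPM in the J4-control libraries and at 63.98 and 62.2 CPM in those labelled J4-2uM (log2 fold change -1.73, SE 0.044, adjusted p = 1.86e-12). DDIT4 also fell with UTX-KD, by 0.78 on the log2 scale. SESN2 was higher with GSK-J4 (0.81) and lower with TAL1-KD (-0.46). DDIT4 rose with TAL1-KD (0.57), from 122 and 143 CPM to 169 and 222 CPM, and lost its call without TAL1-control replicate 1 (adjusted p = 0.0534). Its TAL1-KD value was 0.36 without TAL1-KD replicate 2 and 0.34 after GC and length removal, called in both. With UTX-KD DDIT4 was the 1 regulator that fell, and with GSK-J4 only DDIT4 and ATF4 did.

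Of the remaining regulators, the dimer partners CEBPB and CEBPG had log2 fold changes of 0.88 and 0.40 with UTX-KD and 1.16 and 1.06 with GSK-J4, all called, and -0.07 and -0.12 with TAL1-KD, neither called. With TAL1-KD CEBPB was called lower after GC and length removal (-0.30, adjusted p = 0.0124) and CEBPG without TAL1-KD replicate 1 (-0.15, adjusted p = 0.0188). STC2, a secreted glycoprotein that regulates calcium and phosphate, had -0.58, 1.15 and 0.23 in the TAL1-labelled, UTX-labelled and GSK-J4 comparisons, all called. VLDLR, a lipoprotein receptor, had 0.19, 0.93 and 0.74 in the same order, the TAL1-KD value not called (adjusted p = 0.078). That value was called higher in a fit of all 12 libraries (0.21, adjusted p = 0.00198), without TAL1-KD replicate 1 (0.26, adjusted p = 0.000164) or replicate 2 (0.14, adjusted p = 0.0267), and after GC and length removal (0.36, adjusted p = 0.00958).

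The 15 enzymes make asparagine, arginine, serine, glycine, proline and cysteine or act in mitochondrial folate and carbon metabolism. With UTX-KD 12 rose and 1 fell (median log2 fold change 0.62), with GSK-J4 4 rose and 6 fell (median -0.08), and with TAL1-KD 2 rose and 9 fell (median -0.40). The shares over all genes, in the order higher and lower, were 25.2% and 25.3%, 37.9% and 36.9%, and 26.3% and 27.9%, so the GSK-J4 calls among enzymes were not far from those over all genes. ASS1, argininosuccinate synthase, had the largest rise with UTX-KD. ASS1 stood at 33.9 and 36.7 CPM in the UTX-control libraries and at 213 and 211 CPM in those labelled UTX-KD (log2 fold change 2.59, SE 0.037, adjusted p = 8.89e-18), a 6.02-fold rise. ASS1 also rose with GSK-J4 (1.16) and TAL1-KD (0.49), the latter not called without TAL1-control replicate 1 (adjusted p = 0.0879) or replicate 2 (adjusted p = 0.0932) and 0.30 after GC and length removal. Reads on the 5 ASS1 pseudogenes in the tables were at most 0.295% of ASS1 reads in any library.

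ASNS, asparagine synthetase, is a second usual readout of ATF4. ASNS stood at 13.9 and 12.4 CPM in the UTX-control libraries and at 55.05 and 54.5 CPM in those labelled UTX-KD (log2 fold change 2.05, SE 0.049, adjusted p = 4.14e-15). ASNS stood at 26.5 and 26.6 CPM in the J4-control libraries and at 58.8 and 57.9 CPM in those labelled J4-2uM (log2 fold change 1.14, SE 0.039, adjusted p = 2.12e-11). ASNS stood at 108 and 112 CPM in the TAL1-control libraries and at 83.8 and 88.8 CPM in those labelled TAL1-KD (log2 fold change -0.35, SE 0.076, adjusted p = 0.00732). The treated pair lay above the control pair in the first 2 of these and below it in the last, where the call was lost without TAL1-control replicate 1 (adjusted p = 0.0887) or replicate 2 (adjusted p = 0.142). GPT2, a mitochondrial alanine transaminase, ran the same way, with 19.4 and 19.03 CPM in UTX-control against 51.1 and 49.3 CPM in UTX-KD, and log2 fold changes of -0.40, 1.39 and 0.86 in the TAL1-labelled, UTX-labelled and GSK-J4 comparisons. Its fall with TAL1-KD was not called without TAL1-control replicate 1 (adjusted p = 0.0727) or replicate 2 (adjusted p = 0.0562).

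PCK2, the mitochondrial phosphoenolpyruvate carboxykinase, and CBS, cystathionine beta-synthase, had the deepest falls among the enzymes with TAL1-KD. PCK2 stood at 153 and 146 CPM in the TAL1-control libraries and at 74.8 and 73.5 CPM in those labelled TAL1-KD (log2 fold change -1.01, SE 0.076, adjusted p = 0.000207). CBS stood at 245 and 234 CPM in the TAL1-control libraries and at 137 and 124 CPM in those labelled TAL1-KD (log2 fold change -0.87, SE 0.087, adjusted p = 0.000435). With UTX-KD the same genes rose, by 1.04 and 0.83 on the log2 scale. With GSK-J4 they had -0.14 and -0.11, small falls that lost their calls without J4-control replicate 2 for PCK2 (adjusted p = 0.0917) and without J4-control replicate 1 (adjusted p = 0.0858) or in a fit of all 12 libraries (adjusted p = 0.0622) for CBS. After GC and length removal they were -0.33 and -0.23, both called. CTH, cystathionine gamma-lyase, the next step to cysteine, had 0.05, 0.28 and -0.17 in the TAL1-labelled, UTX-labelled and GSK-J4 comparisons, of which the first was not called. The GSK-J4 value of CTH was not called without J4-control replicate 2 (adjusted p = 0.171) or J4-2uM replicate 2 (adjusted p = 0.0792), nor by DESeq2 (adjusted p = 0.115), and was -0.04 after GC and length removal (adjusted p = 0.52).

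The serine pathway enzymes PHGDH, PSAT1 and PSPH were higher with UTX-KD, with log2 fold changes of 0.47, 0.87 and 0.34. With GSK-J4 none of the 3 was called, at 0.03, -0.08 and 0.03, and the 95% intervals were -0.04 to 0.10, -0.16 to 0.01 and -0.06 to 0.12. PSAT1 was called lower without J4-2uM replicate 1 (-0.14, adjusted p = 0.000339). With TAL1-KD PHGDH and PSPH fell (-0.50 and -0.53) and PSAT1 was not called (0.01). The fall of PHGDH was not called without TAL1-control replicate 1 (adjusted p = 0.0566) or replicate 2 (adjusted p = 0.0732). SHMT2, which turns serine into glycine in mitochondria, had -0.62, 0.18 and 0.05 in the TAL1-labelled, UTX-labelled and GSK-J4 comparisons, the last not called except without J4-2uM replicate 2 (0.08, adjusted p = 0.0131). MTHFD2, a mitochondrial folate dehydrogenase, had -0.74, 0.62 and 0.44, all called. MTHFD1L, which releases formate, had -0.29, -0.05 and -0.84. Its UTX-KD value was not called (adjusted p = 0.19) except after GC and length removal (-0.07, adjusted p = 0.0134). Its TAL1-KD fall was not called without TAL1-control replicate 1 (adjusted p = 0.231) or replicate 2 (adjusted p = 0.182), with RLE size factors (adjusted p = 0.0549) or by DESeq2 (adjusted p = 0.0598), and was -0.18 without TAL1-KD replicate 1. ALDH1L2, another mitochondrial folate enzyme, had 5 to 23 reads per library and no call, with -0.86, 0.79 and -0.40.

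The proline enzymes took opposite directions with UTX-KD, and both fell with GSK-J4. ALDH18A1, which makes the precursor of proline from glutamate, had 0.07, -0.57 and -1.02 in the TAL1-labelled, UTX-labelled and GSK-J4 comparisons, with falls called in the last 2. With TAL1-KD ALDH18A1 was called higher without TAL1-KD replicate 1 (0.14, adjusted p = 0.0207). PYCR1, which completes proline synthesis, had 0.62, 0.34 and -0.54, called higher in both hairpin lines and lower with GSK-J4, and its TAL1-KD value was 0.39 after GC and length removal. ALDH18A1 was the 1 enzyme that fell with UTX-KD.

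All 8 transporters rose with UTX-KD (median log2 fold change 0.60), 5 rose and 3 fell with GSK-J4 (median 0.22), and 3 rose and 4 fell with TAL1-KD (median -0.10). Over all genes 25.2% and 25.3%, 37.9% and 36.9%, and 26.3% and 27.9% were called higher and lower in the same order of comparisons. The transporter falls with GSK-J4 were near that share. SLC6A9, a glycine transporter, had the largest rise among the transporters, with UTX-KD. SLC6A9 stood at 2.15 and 2.01 CPM in the UTX-control libraries and at 10.9 and 10.9 CPM in those labelled UTX-KD (log2 fold change 2.38, SE 0.084, adjusted p = 5.58e-13). SLC7A11, the cystine importer xCT, also rose. SLC7A11 stood at 9.46 and 9.28 CPM in the UTX-control libraries and at 23.8 and 26.9 CPM in those labelled UTX-KD (log2 fold change 1.43, SE 0.062, adjusted p = 8.74e-12). Both treated libraries stood above both controls for each gene.

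SLC7A11 with GSK-J4 was at 11.03 and 11.4 CPM in J4-control against 16.7 and 19.2 CPM in J4-2uM (log2 fold change 0.67, SE 0.071, adjusted p = 1.55e-06). With TAL1-KD it was at 32.6 and 32.7 CPM in TAL1-control against 38.9 and 30.7 CPM in TAL1-KD (log2 fold change 0.09, SE 0.12, adjusted p = 0.535), with overlapping groups. The TAL1-KD value was called higher after GC and length removal (0.42, adjusted p = 0.00262) and without TAL1-KD replicate 2 (0.25, adjusted p = 0.000811). SLC6A9 had 0.85 with GSK-J4 and -0.58 with TAL1-KD, both called.

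SLC3A2, the heavy chain shared by several amino acid exchangers, rose in all 3 comparisons. SLC3A2 stood at 351 and 359 CPM in the TAL1-control libraries and at 633 and 713 CPM in those labelled TAL1-KD (log2 fold change 0.92, SE 0.10, adjusted p = 0.000536). With UTX-KD and GSK-J4 its log2 fold changes were 0.72 and 1.11. SLC7A5, the leucine-carrying light chain of LAT1 that pairs with SLC3A2, had 0.36, 0.26 and -0.79 in the TAL1-labelled, UTX-labelled and GSK-J4 comparisons, so with GSK-J4 the heavy chain rose and this light chain fell. The TAL1-KD rise of SLC7A5 was not called without TAL1-control replicate 1 (adjusted p = 0.284) or replicate 2 (adjusted p = 0.3) or after GC and length removal (0.24, adjusted p = 0.0745), which also took its UTX-KD value to 0.16.

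SLC1A4 and SLC38A2 carry neutral amino acids, and both fell with TAL1-KD. SLC1A4 stood at 207 and 205 CPM in the TAL1-control libraries and at 101 and 63.4 CPM in those labelled TAL1-KD (log2 fold change -1.32, SE 0.19, adjusted p = 0.0014). SLC38A2 stood at 296 and 296 CPM in the TAL1-control libraries and at 208 and 128 CPM in those labelled TAL1-KD (log2 fold change -0.82, SE 0.20, adjusted p = 0.011). For each gene TAL1-KD replicate 2 was the lower of the treated libraries, and both treated libraries were under both controls. Without that library the SLC38A2 value was -0.51. SLC1A4 had 0.49 with UTX-KD and 0.16 with GSK-J4, the latter not called without J4-control replicate 1 (adjusted p = 0.0878) or in a fit of all 12 libraries (adjusted p = 0.341). SLC38A2 had 0.13 and -0.31, and neither was called in a fit of all 12 libraries (adjusted p = 0.483 and 0.0692).

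SLC1A5, a glutamine transporter, had 0.60, 0.72 and 0.28 in the TAL1-labelled, UTX-labelled and GSK-J4 comparisons and was called higher in each, though with GSK-J4 it was 0.0996 after GC and length removal (adjusted p = 0.0215). SLC7A1, an arginine transporter, had -0.30, 0.14 and -0.37, all called, though its TAL1-KD fall was lost without TAL1-control replicate 1 (adjusted p = 0.274) or replicate 2 (adjusted p = 0.261). XPOT had -0.15, 0.26 and 0.17, called with UTX-KD and GSK-J4. The GSK-J4 value of XPOT was 0.25 after GC and length removal, and the TAL1-KD value was called lower in a fit of all 12 libraries (-0.13, adjusted p = 0.0394) and without TAL1-KD replicate 1 (-0.17, adjusted p = 0.0171).

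Across the 3 comparisons 6 genes were called higher in each: ATF5, DDIT3, PPP1R15A, ASS1, SLC3A2 and SLC1A5. Of the 16103 genes tested in all 3, 8.02% had that pattern. The most frequent pattern, in 8 genes, was lower with TAL1-KD and higher with the other treatments: TRIB3, SESN2, STC2, ASNS, MTHFD2, GPT2, SLC1A4 and SLC6A9 (2.79% of all genes). ATF3, CEBPB, CEBPG, VLDLR, SLC7A11 and XPOT were higher with UTX-KD and GSK-J4 and not called with TAL1-KD (6.84% of all genes). PCK2, CBS, SLC7A1 and SLC38A2 were higher with UTX-KD and lower with the other treatments (1.32% of all genes). CHAC1, PHGDH, PSPH and SHMT2 were lower with TAL1-KD, higher with UTX-KD and not called with GSK-J4. The share of all genes with that pattern was not computed. ATF4, PYCR1 and SLC7A5 were higher in both hairpin lines and lower with GSK-J4 (1.15% of all genes). The 3 comparisons have no library in common.

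Whether responses differed was tested with a treatment-by-comparison interaction term fitted to the 8 libraries of each pair, so differences stand beside but are not exactly those of the separate fits. That fit uses 1 spread per gene for all 8 libraries, although the TAL1-labelled libraries varied more than the others (8.4% beside 2.3% and 2.69%). Intervals and adjusted p-values of pairs with TAL1-KD may therefore be too small. For SESN2 the SE of the difference between TAL1-KD and UTX-KD was 0.073, beside 0.075 for TAL1-KD alone. Between the UTX-labelled and GSK-J4 responses, the log2 fold change of 27 of 37 genes was larger with UTX-KD and that of 8 larger with GSK-J4, where 30.1% and 28.3% of all genes tested differed in those directions. By role, 14 of 15 listed enzymes and 7 of 8 transporters had the larger log2 fold change with UTX-KD. None of those enzymes had the larger one with GSK-J4. Among regulators and effectors 6 were larger with UTX-KD and 7 with GSK-J4. The 6 were ATF4, DDIT4, SESN2, CHAC1, STC2 and VLDLR. The 7 were ATF3, ATF5, DDIT3, CEBPB, CEBPG, TRIB3 and PPP1R15A, and the 1 transporter was SLC3A2. For PPP1R15A the UTX-KD log2 fold change less that of GSK-J4 was -1.74 (95% interval -1.88 to -1.60, adjusted p = 3.78e-18), and for ATF5 -1.11 (95% interval -1.21 to -1.001, adjusted p = 1.07e-16). For ASS1 it was 1.42 (95% interval 1.30 to 1.54, adjusted p = 9.83e-18), and for CHAC1 1.99 (95% interval 1.80 to 2.19, adjusted p = 1.5e-16). ATF4, PYCR1, PCK2, CTH, CBS, SLC7A5, SLC7A1 and SLC38A2 were called in opposite directions, higher with UTX-KD and lower with GSK-J4, each with a called difference, as were 4.20% of all genes.

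**Figure D2:**
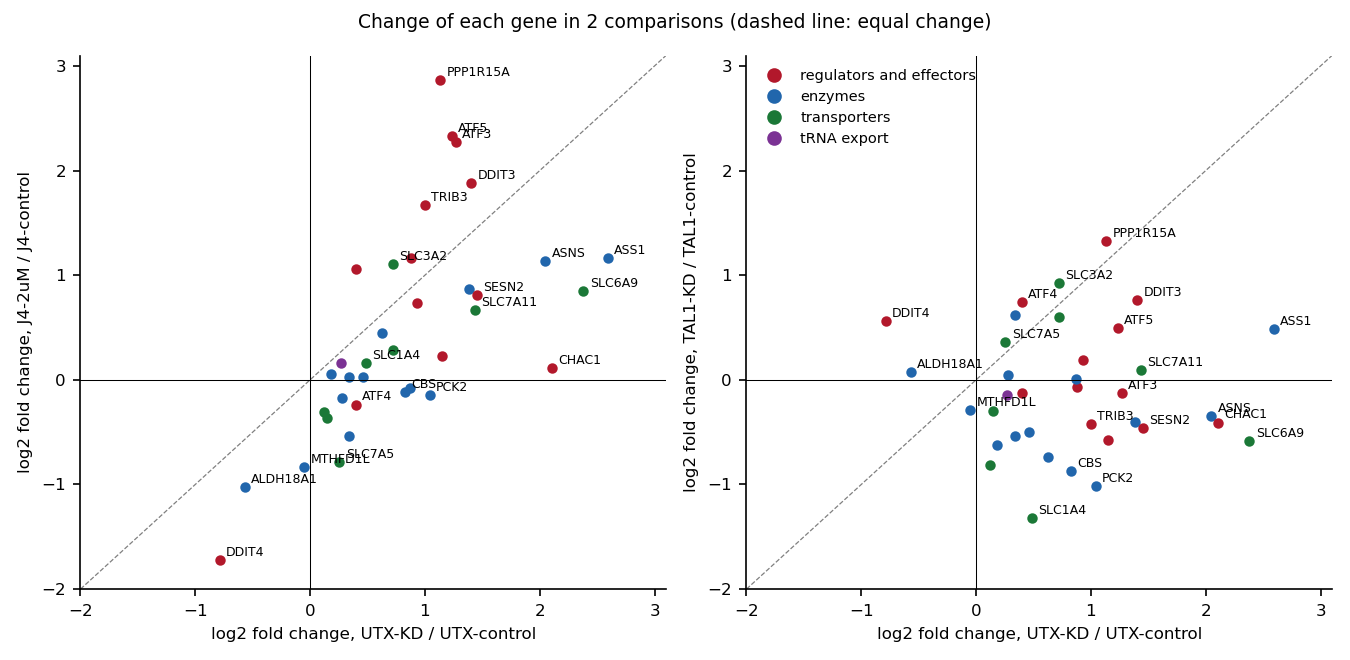
Log2 fold change of each gene with UTX-KD (x axis) against that with GSK-J4 (left, y axis) or with TAL1-KD (right, y axis); each point is 1 gene coloured by role and the dashed line marks equal change. On the left PPP1R15A, ATF5, ATF3, DDIT3 and TRIB3 lie above the line and the enzymes lie under it; on the right most points lie under the line.

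Between the TAL1-labelled and UTX-labelled responses, 27 genes had the smaller log2 fold change with TAL1-KD and 4 the larger, where 25.1% and 25.0% of all genes tested differed in those directions. The median difference was -0.84. Calls in opposite directions with a called difference were found for 17 of the 37 genes and for 11.2% of all genes tested. The 4 with the larger value were ATF4, DDIT4, ALDH18A1 and PYCR1, and their number became 2 when any 1 of the TAL1-control, UTX-control or UTX-KD libraries was left out. For SESN2 the TAL1-KD log2 fold change less that of UTX-KD was -1.88 (95% interval -2.04 to -1.72, adjusted p = 1.54e-06), and for PCK2 -2.02 (95% interval -2.20 to -1.85, adjusted p = 1.54e-06). For ASNS it was -2.37 (95% interval -2.58 to -2.16, adjusted p = 1.54e-06), and for GPT2 -1.76 (95% interval -1.92 to -1.60, adjusted p = 1.54e-06). The difference was not called for 6 genes, among them PPP1R15A at 0.23 (95% interval -0.08 to 0.54, adjusted p = 0.197) and SLC3A2 at 0.23 (95% interval 0.02 to 0.45, adjusted p = 0.0647).

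Between the TAL1-labelled and GSK-J4 responses, 24 genes had the smaller log2 fold change with TAL1-KD and 7 the larger, where 27.6% and 26.3% of all genes differed in those directions. Here 11 of 13 regulators and effectors had the smaller value with TAL1-KD. For ATF3 the difference was -2.37 (95% interval -2.58 to -2.16, adjusted p = 7.49e-08) and for ATF5 -1.81 (95% interval -2.02 to -1.60, adjusted p = 3.26e-07). For ASNS it was -1.45 (95% interval -1.64 to -1.27, adjusted p = 5.63e-07) and for GPT2 -1.24 (95% interval -1.40 to -1.07, adjusted p = 7.89e-07). The 7 with the larger value with TAL1-KD were ATF4, DDIT4, MTHFD1L, ALDH18A1, PYCR1, SLC7A5 and SLC1A5.

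The control groups themselves differed in the level of these genes, as seen when all 12 libraries were scaled together. In 34 of 37 genes both TAL1-control libraries were above all 4 UTX-control and J4-control libraries, and in 1, ALDH18A1, they were below. DDIT4 and ALDH1L2 were neither. Of the 18460 genes scaled together, 35.1% were above in that way and 31.5% below. The median log2 ratio of TAL1-control to UTX-control was 1.37 for the list and 0.06 for all genes, and that to J4-control was 1.39 and -0.01. SLC6A9 had a mean of 31.03 CPM in TAL1-control, 2.07 CPM in UTX-control and 3.28 CPM in J4-control. CHAC1 had means of 83.2, 5.72 and 7.90 CPM in the same order, and ASS1 480.4, 35.1 and 87.6 CPM. These are ratios of TAL1-control to UTX-control of 14.97, 14.5 and 13.7. The TAL1-control, UTX-control and J4-control cells differ in hairpin, and the last also in medium, selection agent and vehicle, and any difference in handling goes with the groups, so these cannot be told apart and no test is given.

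**Figure D3:**
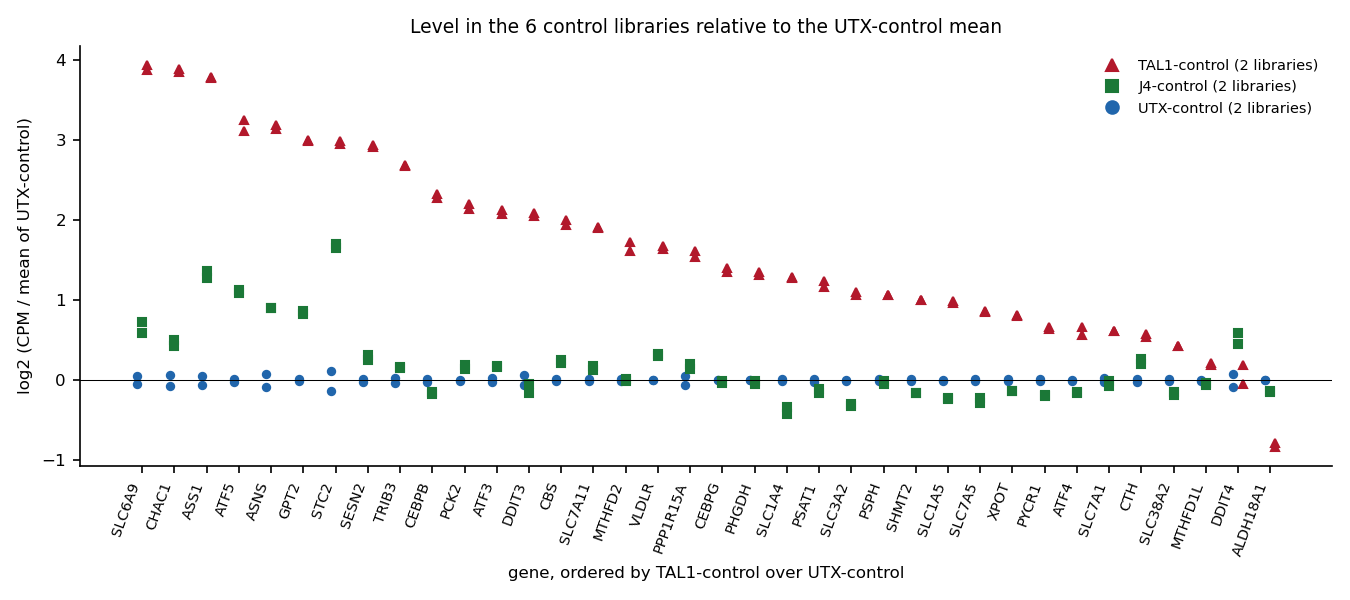
Level of each gene in the 6 control libraries as log2 ratio to the mean of UTX-control (y axis), with genes ordered by TAL1-control over UTX-control (x axis) and each point 1 library; NUPR1 and ALDH1L2, with few reads, are left out. The TAL1-control triangles lie above the other symbols except at DDIT4 and ALDH18A1, and are farthest above for SLC6A9.

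The rises with UTX-KD began from UTX-control levels under those of TAL1-control and did not reach the level of TAL1-control. For all 33 genes that rose with UTX-KD both TAL1-control libraries were above both UTX-KD libraries, as they were for 45.4% of all 4240 genes called higher with UTX-KD. ASNS, for example, was at 13.1 CPM in UTX-control, 55.5 CPM in UTX-KD and 118 CPM in TAL1-control, and at 94.01 CPM in TAL1-KD. In 34 genes the highest of the 6 group means was in a TAL1-labelled group, the exceptions being ATF3 and PPP1R15A, highest with J4-2uM, and ALDH18A1, highest in UTX-control. The highest mean was in a TAL1-labelled group for 41.8% of all genes. For ASNS the TAL1-KD mean was also above the UTX-KD mean.

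**Figure D4:**
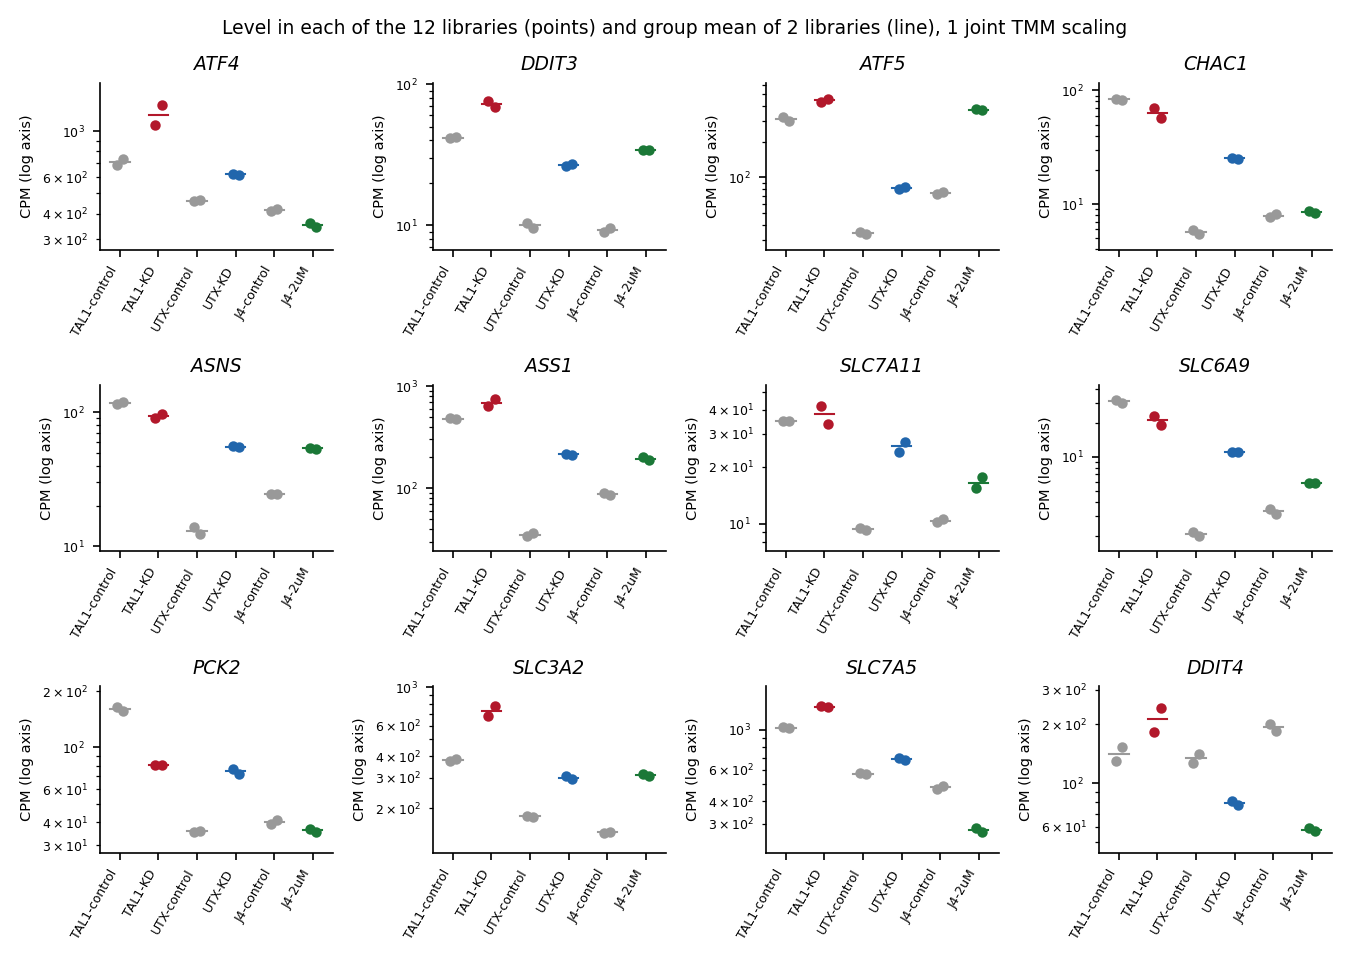
Level of 12 of the genes in each of the 12 libraries in CPM after joint scaling (log y axis), by group (x axis), with points for libraries and a line for the group mean. Treated libraries are coloured and controls grey; for CHAC1 the TAL1-labelled libraries lie above all others, and SLC7A5 and DDIT4 are lowest with J4-2uM.

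Upstream of ATF4, 16 of 17 listed genes for eIF2 kinases, their activators, eIF2, its exchange factor eIF2B and a phosphatase subunit were tested. With TAL1-KD 9 rose and 2 fell (median log2 fold change 0.32), with UTX-KD 4 rose and 6 fell (median -0.05), and with GSK-J4 5 rose and 10 fell (median -0.19). Over all genes 26.3% and 27.9%, 25.2% and 25.3%, and 37.9% and 36.9% were called higher and lower in the same order of comparisons, so the UTX-KD and GSK-J4 rises were near or under that share. PPP1R15B, the constitutive counterpart of PPP1R15A, rose in each, by 0.83, 0.34 and 0.67. With TAL1-KD the eIF2B subunit EIF2B2 (0.67) and the haem-regulated kinase EIF2AK1 (0.52) also rose. With UTX-KD EIF2S1, the alpha subunit of eIF2, fell by 0.32 and the beta subunit EIF2S2 rose by 0.25. With GSK-J4 EIF2B4 rose by 0.87 and OMA1, a mitochondrial protease that relays mitochondrial stress, fell by 0.81.

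Of 14 other genes described as ATF4 targets, 13 were tested. Like the 38 genes and the upstream genes, this list was chosen with earlier results of these data known. Counts over these lists are therefore no independent support. With UTX-KD 9 rose and 1 fell (median log2 fold change 0.65), with GSK-J4 11 rose and 2 fell (median 0.92), and with TAL1-KD 6 rose and 4 fell (median 0.24). The shares over all genes, higher and lower, were 25.2% and 25.3%, 37.9% and 36.9%, and 26.3% and 27.9% in that order. The falls with TAL1-KD were near that share. GABARAPL1, an autophagy protein, rose by 1.76 with TAL1-KD, 0.65 with UTX-KD and 1.45 with GSK-J4. The autophagy receptor SQSTM1 rose by 0.86, 0.26 and 0.92 in the same order. KLHL24, a ubiquitin ligase adaptor, rose by 1.08, 0.90 and 1.19 with TAL1-KD, UTX-KD and GSK-J4. The leucine zipper factor JDP2 had -0.36, 1.37 and 1.07 in that order, all called. The amino acid transporter SLC43A1 had -0.11, 1.06 and 0.83, the first not called. The genes that fell were JDP2, SESN3, SLC38A1 and FGF21 with TAL1-KD, LONP1 with UTX-KD, and SLC38A1 and LONP1 with GSK-J4.

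The authors' deposited table for each comparison gave the same call as here for 36 of the 38 genes and the opposite call for none. A different call was given for MTHFD1L with TAL1-KD and for CTH with GSK-J4. ALDH1L2 with UTX-KD, not called here, and NUPR1 in each comparison, not tested here, had no deposited adjusted p and were counted as not the same.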

How the data were processed

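Messenger RNA libraries from 12 Jurkat samples were compared in 3 pairs of groups named by the labels. The submitters' processing notes name the hg19 build, HTSeq 0.6.1p1, TopHat2 2.0.12 and DESeq2. The annotation, the strand setting and the treatment of multiply mapped reads are not given in the sources used here. The authors deposited 1 table per comparison with raw read counts per Ensembl gene, not normalized, and with log2 fold changes and adjusted p-values of DESeq2; the deposited log2 fold changes and p-values were used only to compare calls. There were 0 columns of sample values left unused.

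Counts were fitted in R 4.3.3 with edgeR 4.0.16 (limma 3.58.1): genes were filtered with filterByExpr, libraries scaled by TMM, and each comparison fitted alone by the two-sided quasi-likelihood test with Benjamini-Hochberg adjustment over all genes tested. CPM values are TMM-scaled within a comparison, and over all 12 libraries for control levels. The standard error is the log2 fold change over the root of F. Symbols came from GENCODE 29. Counting precision is set by 55524079 to 82534711 reads per library. The procedure was tested on simulated data.

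The genes and the pathway lists were chosen with earlier results of these data known. All 38 genes are named; values by library are given for ATF4, CHAC1, ASNS, SLC7A11 and the 6 largest called changes of each comparison. For each pair of comparisons the 4 largest interaction statistics are given, and for the pathway lists up to 3 called genes with the smallest adjusted p. The other ATF4 targets that fell are also named. Alternatives were a threshold of 0.01, other size factors, filters and fits, DESeq2 1.42.0, a replicate block and each library left out. Removal of the trend with GC content and length, and the interactions with a library left out or under a 1 CPM filter, were added after seeing the data.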

Additional observations from a re-analysis of the deposited data

Results flagged for a closer look

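Of the 37 genes tested, 17 were called in opposite directions in the 2 comparisons that used doxycycline, with a difference that itself passed edgeR's interaction test at adjusted p under 0.05. That test uses 1 spread per gene for both comparisons, so its adjusted p-values may be too small. Of all genes tested in both, 11.2% met the same terms. Differences are the TAL1-KD log2 fold change less that of UTX-KD. DDIT4 was the only 1 of the 17 that rose with TAL1-KD and fell with UTX-KD, with a difference of 1.39. The others fell with TAL1-KD and rose with UTX-KD. Among regulators and effectors the differences were -2.49 for CHAC1, -1.88 for SESN2, -1.68 for STC2 and -1.39 for TRIB3. Among enzymes they were -2.37 for ASNS, -2.02 for PCK2, -1.76 for GPT2, -1.67 for CBS, -1.33 for MTHFD2, -0.93 for PHGDH, -0.84 for PSPH and -0.77 for SHMT2. Among transporters they were -2.93 for SLC6A9, -1.78 for SLC1A4, -0.91 for SLC38A2 and -0.41 for SLC7A1. Without 1 of the TAL1-control libraries the TAL1-KD calls of TRIB3, DDIT4, CHAC1, ASNS, PHGDH, GPT2 and SLC7A1 were lost, as given with each gene. Their log2 fold changes kept their sign. With all libraries, without TAL1-control replicate 1 and without replicate 2, they were -0.42, -0.42 and -0.43 for TRIB3. In that order they were -0.35, -0.37 and -0.32 for ASNS, and -0.50, -0.52 and -0.48 for PHGDH. For GPT2 they were -0.40, -0.39 and -0.42, and for SLC7A1 -0.30, -0.30 and -0.30. Without replicate 1 CHAC1 went from -0.41 to -0.39 and DDIT4 from 0.57 to 0.46.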

How the results depend on the processing

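No log2 fold change of a tested gene that was called reversed its sign under any alternative. Of 406 values in the TAL1-labelled comparison 372 kept their side of the threshold, 22 lost and 12 gained a call; of 405 in the UTX-labelled one 403 did, 1 lost and 1 gained; of 406 with GSK-J4 394 did, 10 lost and 2 gained. The number of genes lower with TAL1-KD, 17, ranged from 10 to 19 with a library left out; the cause was not tested. The median log2 fold change with TAL1-KD, -0.15, was -0.30 after removal of the trend with GC content and length, and that with UTX-KD, 0.79, ranged from 0.70 to 0.84 with a library left out. The 4 genes with a larger change with TAL1-KD than with UTX-KD became 2 at adjusted p under 0.01 and 2 under a 1 CPM filter, and ranged from 2 to 6 with a library left out. Over all genes, calls with TAL1-KD were 2431 higher and 3094 lower without TAL1-control replicate 1 and 2657 and 3236 without replicate 2, beside 4424 and 4696. With UTX-KD they were 2446 lower in a fit of all 12 libraries, beside 4269. Same-numbered libraries did not deviate together (correlations 0.07, 0.04 and -0.03), so the numbers are not shown to pair them. With the replicate block 10 and 17 genes were higher and lower with TAL1-KD, 33 and 2 with UTX-KD and 20 and 11 with GSK-J4, as without it. With 1 library in an arm, that library is assumed to vary like the others.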
